A study of Mus musculus with 24 samples.

Results

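The 9 genes described here are products and regulators of the goblet cell, the mucus-secreting cell of the gut lining: Muc2, Clca1, Tff3, Fcgbp, Zg16, Agr2, Spdef, Atoh1 and Spink4. They were chosen by symbol, and every array probe whose accession mapped to a member was taken. This gave 10 of the 56605 probes on the array, 2 for Muc2 and 1 for each of the other 8 genes. Goblet cells fill with MUC2, a very large glycoprotein that is folded in the endoplasmic reticulum, packed into granules and released to form the mucus that keeps bacteria off the colonic epithelium. ATOH1 commits a dividing progenitor to the secretory lineages, and SPDEF acts later to drive goblet cell maturation. Loss of MUC2 in mice is known to lead to colitis and colon tumors.

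Colon RNA came from C57BL/6J mice of 6 groups, with 1 mouse per array and 4 arrays per group. M and F mice were sham-operated males and females, F(OVX) mice were females whose ovaries had been removed, and each kind ate a low-fat (LFD) or a high-fat diet (HFD), so that M + HFD stands for males on HFD. The carcinogen azoxymethane (AOM) was given to all of them at 10 mg/kg, the LFD groups included, and was followed by 1.5% DSS (dextran sulfate sodium), which injures the colonic epithelium, in 3 cycles. The mice arrived at 7 weeks of age. Fat gave 10% of the energy in LFD and 45% in HFD over 14 weeks, and tissue was taken 75 days after AOM, so no group shows the colon without AOM and DSS. The methods give 5 mice per group for the arrays, whereas the labels give 4. Per the methods the RNA came from what was left of the distal colon after a piece had been fixed for histology, a bulk tissue in which fewer goblet cells and less RNA per goblet cell cannot be told apart. Values are log2 processed signals after quantile normalization over the 24 arrays.

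The share of probes well above background ran from 40.5% to 61.9% per array, and arrays of a group correlated at r between 0.939 and 0.988. Each slide held the 8 arrays of M, F or F(OVX), so sex or surgery and slide cannot be told apart, and the same holds for diet and the row of the slide, since LFD lay in row 1 and HFD in row 2. All 8 markers of epithelium as a whole, such as Epcam and Krt8, were well above background on all 24 arrays. M + LFD replicates 1 and 2 stood apart from the other 22 arrays in Hoxb13, a gene of the distal colon, with log2 signals of 2.18 and 5.04 against 12.58 to 14.79.

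Goblet cell RNA was abundant on every array. All 10 probes were well above background on 24 of 24 arrays, and none was saturated. Apart from Muc2, the probes were listed under NM_017474 (Clca1), NM_011575 (Tff3), NM_001122603 (Fcgbp), NM_026918 (Zg16), NM_011783 (Agr2), NM_013891 (Spdef), NM_007500 (Atoh1) and NM_011463 (Spink4). The bright Muc2 probe (A_55_P2505500) ranked between 3 and 94 among all probes of an array, Zg16 between 2 and 269, and Clca1 between 9 and 174. The lowest signals came from the dim Muc2 probe and the 2 transcription factors, with mean log2 signals over the 24 arrays of 11.57 for that probe, 11.66 for Atoh1 and 12.87 for Spdef. Levels of different probes depend on the probe as well as on the RNA, so no order of abundance between genes is drawn from them.

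The promoters of Muc2, Agr2 and Spdef are shown because these 3 genes moved together over the arrays, as described later. The RefSeq table (GRCm38.p6) held promoters for 5 of the 9 members, each 300 bases long and ending just after the transcription start. Capitals mark TATAAA, the letters of a TATA box, and CAGCTG, an E-box of the kind that basic helix-loop-helix factors such as ATOH1 can bind, searched on both strands.
Muc2 (chr7:141690090-141690389, + strand): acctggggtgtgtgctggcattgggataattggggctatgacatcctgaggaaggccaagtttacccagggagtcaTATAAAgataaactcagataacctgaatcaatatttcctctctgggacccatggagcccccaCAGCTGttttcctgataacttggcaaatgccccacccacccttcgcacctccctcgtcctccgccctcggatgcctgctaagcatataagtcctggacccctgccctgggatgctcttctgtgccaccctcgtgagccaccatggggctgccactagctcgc
Agr2 (chr12:35992675-35992974, + strand): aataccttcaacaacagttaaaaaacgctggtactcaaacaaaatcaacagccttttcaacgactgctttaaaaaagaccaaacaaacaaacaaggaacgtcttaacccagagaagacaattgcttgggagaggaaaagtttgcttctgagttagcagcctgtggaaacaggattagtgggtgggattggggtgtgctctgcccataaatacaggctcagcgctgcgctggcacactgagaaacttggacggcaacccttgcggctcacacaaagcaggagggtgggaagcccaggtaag
Spdef (chr17:27728902-27729201, - strand): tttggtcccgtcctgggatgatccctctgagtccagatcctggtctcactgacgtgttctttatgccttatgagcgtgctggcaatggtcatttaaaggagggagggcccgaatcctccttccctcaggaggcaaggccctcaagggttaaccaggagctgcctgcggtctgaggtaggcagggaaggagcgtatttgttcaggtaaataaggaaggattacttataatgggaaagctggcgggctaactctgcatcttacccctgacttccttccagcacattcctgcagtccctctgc
Of the 5 promoters, TATAAA was found in that of Muc2 alone, against 13.6% of the 32851 promoters in the table. CAGCTG was found in the promoters of Muc2 and Fcgbp, against 16.3% of all. CAATAAA, a caudal-type homeobox motif, was in none of the 5 and in 4.6% of all.

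Muc2 was read by a bright and a dim probe, both listed under NM_023566, and the probes differed widely in their spread. The bright probe had a mean log2 signal of 16.82 over the 24 arrays and ran from 16.08 to 17.18. The dim probe (A_52_P565926) had a mean of 11.57 and a range of 3.93, from 9.49 on M + HFD replicate 1 to 13.42 on F + HFD replicate 2. The SD within groups was 0.26 for the bright probe, at the 36.8th percentile of the 21168 probes that were well above background on all arrays. It was 1.14 for the dim probe, at the 99.2th percentile, against a median of 0.30 over those probes.

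**Figure D1:**
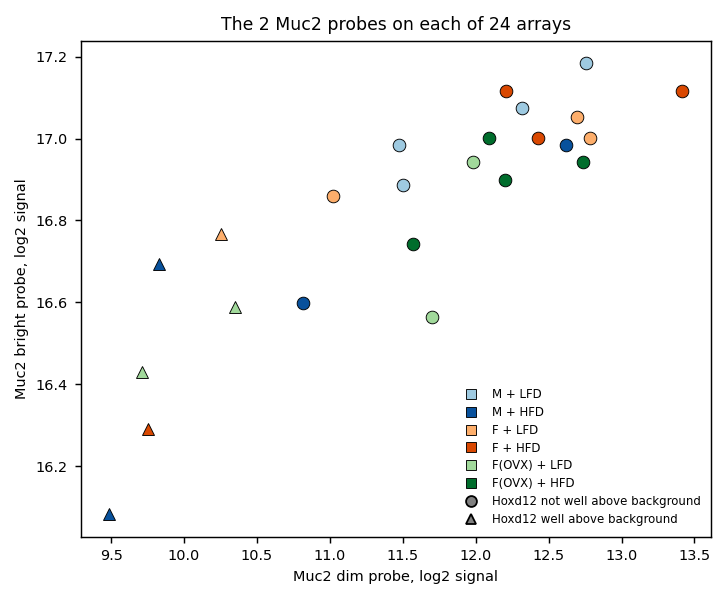
Each of the 24 arrays is a point, with the log2 signal of the dim Muc2 probe on the horizontal axis and that of the bright probe on the vertical axis, colored by group, and triangles mark the 6 arrays on which Hoxd12 was well above background. The dim probe runs over 3.93 log2 units and the bright probe from 16.08 to 17.18, the probes rise together (r = 0.86), and the 6 triangles hold the lowest values of the dim probe.

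The bright probe read 16.98, 17.08, 17.18 and 16.89 on M + LFD replicates 1 to 4 and 16.08, 16.60, 16.98 and 16.69 on M + HFD replicates 1 to 4. In F + LFD it read 17.00, 17.05, 16.77 and 16.86, and in F + HFD 17.12, 17.12, 16.29 and 17.00. In F(OVX) + LFD it read 16.94, 16.43, 16.56 and 16.59, and in F(OVX) + HFD 17.00, 16.94, 16.90 and 16.74. The groups overlapped in every one of these comparisons of diet. The order of the group means was M + LFD (17.03 ± 0.13, SD, n = 4), F + LFD (16.92 ± 0.13), F(OVX) + HFD (16.90 ± 0.11), F + HFD (16.88 ± 0.40), F(OVX) + LFD (16.63 ± 0.22) and M + HFD (16.59 ± 0.38), and the ranges of all neighbors in this order overlapped.

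The dim probe read 11.47, 12.31, 12.76 and 11.50 on M + LFD replicates 1 to 4, and 9.49, 10.81, 12.62 and 9.83 on M + HFD replicates 1 to 4. In F + LFD it read 12.78, 12.69, 10.25 and 11.02, and in F + HFD 12.21, 13.42, 9.76 and 12.43. In F(OVX) + LFD it read 11.98, 9.71, 11.70 and 10.35, and in F(OVX) + HFD 12.09, 12.74, 12.20 and 11.57. The 6 lowest values thus fell in 4 of the 6 groups, and 1 array of M + HFD, replicate 3, read as high as the LFD arrays. The 4 arrays of F(OVX) + HFD lay close together (12.15 ± 0.48, SD, n = 4), whereas F + HFD (11.95 ± 1.56) and M + HFD (10.69 ± 1.41) were spread widely.

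The gap between the 2 probes was itself variable. The bright probe was 13.0 times as bright as the dim probe on F + HFD replicate 2 and 116 times as bright on M + HFD replicate 4. The log2 gap was larger under HFD than LFD by 0.88 in males (exact permutation test, two-sided, p = 0.2), and it differed by -0.30 in females (exact p = 0.83) and by -0.95 in OVX females (exact p = 0.171). None of these was beyond the spread of 4 arrays against 4, for which the smallest possible p is 0.0286. Where the bright probe lies in the ranking of an array, at its top end, was not tested as a source of its narrower range, which before normalization was 1.56 log2 units against 3.42 for the dim probe.

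The diet comparisons asked whether HFD altered gene expression in the colon of each kind of mouse. A probe was called a DEG where it passed the thresholds named in the methods, 1.5-fold and p under 0.05 without adjustment, here by limma. In males, 0 of the 10 probes were DEGs, against 4.23% of the 26118 probes tested, and Atoh1 was the only member at an unadjusted p under 0.05. These counts depended on single arrays. Without M + HFD replicate 3, 3 of the 10 probes were DEGs, namely the dim Muc2 probe, Spdef and Atoh1. In that setting 5 had an unadjusted limma p under 0.05, whereas without M + HFD replicate 1 both counts were 0. The share of all probes called in these settings is not given. In females, 0 of 10 were DEGs and 0 had an unadjusted p under 0.05, against 1.34% DEGs among 28234 probes. In OVX females 2 of 10 were DEGs, the dim Muc2 probe and Spdef, both higher under HFD, against 2.11% of 24434 probes. After Benjamini-Hochberg adjustment over all probes, 0 probes of any kind passed 0.05 in any of the 3 diet comparisons by limma, where 1594, 900 and 877 had an unadjusted p under 0.05 in males, in females and after OVX.

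**Figure D2:**
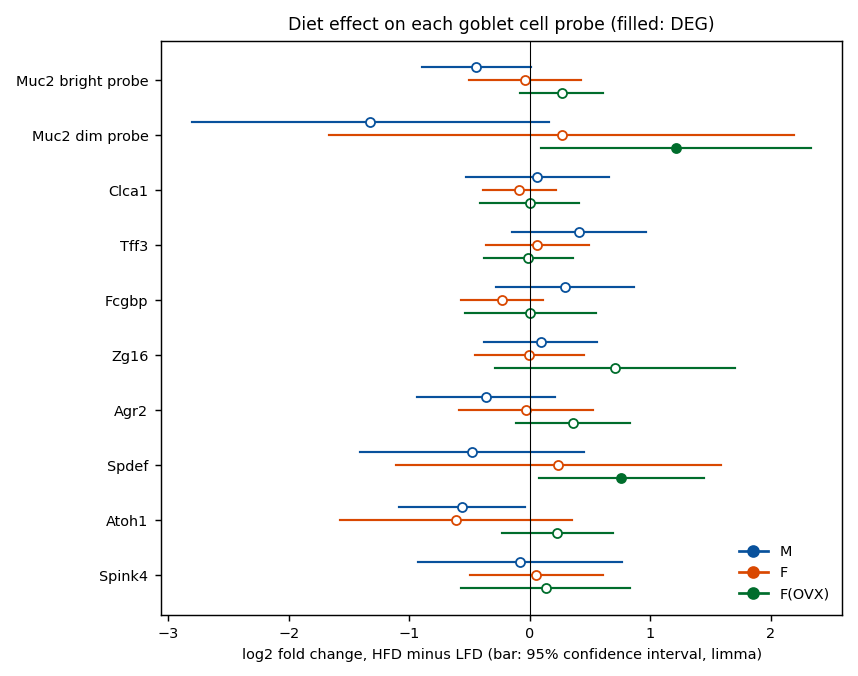
Points give the log2 fold change of HFD over LFD for each of the 10 probes in males (blue), females (orange) and OVX females (green), with 95% confidence intervals from limma, and filled points are DEGs. The 2 Muc2 probes, Agr2, Spdef, Atoh1 and Spink4 lie below 0 in males and above 0 in OVX females, and most intervals cross 0.

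Among the secreted products, the bright Muc2 probe differed by -0.44 in males (95% confidence interval -0.90 to 0.01, exact p = 0.0857), by -0.04 in females (-0.50 to 0.43, exact p = 0.943) and by 0.27 in OVX females (-0.08 to 0.61, exact p = 0.0857). Without M + HFD replicate 1 the difference in males was -0.27. In females the sign depended on the scaling, since the difference was 0.42 after scaling to the 75th percentile. The dim probe differed by -1.32 in males (exact p = 0.143), by 0.27 in females (exact p = 0.83) and by 1.21 in OVX females (0.09 to 2.34, limma adjusted p = 1, exact p = 0.114). The call in OVX females was lost under the methods' t-test, in a fit of all 24 arrays, without a filter on dim probes, and without any 1 of F(OVX) + LFD replicates 2 and 4 and F(OVX) + HFD replicates 1, 2 and 3 (0.81 to 1.23). In males the dim probe was a DEG with the replicate number as a block (-1.32) and without M + HFD replicate 3 (-1.97), but not otherwise.

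Tff3 encodes a small peptide released with mucin that aids epithelial repair. It read 15.68, 15.61, 14.61 and 15.58 in M + LFD and 15.65, 15.84, 15.90 and 15.73 in M + HFD, a difference of 0.41 (exact p = 0.0571), and replicate 3 of M + LFD stood far below the other 3. Without that array the difference was 0.16. With M + LFD replicates 1 and 2 left out, which leaves the low array as 1 of the 2 on LFD, the difference was 0.69 and Tff3 was a DEG (limma adjusted p = 0.936), as it was after scaling to the 75th percentile (0.59). In females and OVX females it differed by 0.06 and -0.01.

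Zg16 encodes a lectin that binds Gram-positive bacteria in the mucus. It read 17.18, 17.28, 15.41 and 15.51 in F(OVX) + LFD, against 17.28, 16.82, 17.05 and 17.05 in F(OVX) + HFD, so that 2 LFD arrays were low and 2 were as high as the HFD arrays (difference 0.71, exact p = 0.4). These were the lowest Zg16 values of the 24 arrays, the other 22 lying between 16.42 and 17.28. In males and females Zg16 differed by 0.09 and -0.00.

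Clca1, a metalloprotease that cleaves the mucin network, read between 15.85 and 16.98 over all arrays and differed by 0.06 in M, -0.09 in F and -0.00 in F(OVX). Fcgbp, which is linked to MUC2 in the mucus, differed by 0.29 in males (exact p = 0.371; 0.08 without M + HFD replicate 3), -0.23 in females (exact p = 0.143) and 0.00 in OVX females (exact p = 1). Spink4, a peptide with a protease inhibitor domain, differed by -0.08, 0.05 and 0.13. For Clca1 in OVX females the 95% confidence interval ran from -0.41 to 0.41, so a change smaller than this was not detectable with 4 arrays per group.

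Agr2 is a disulfide isomerase of the endoplasmic reticulum that MUC2 needs for its assembly. It read 15.77, 16.00, 16.35 and 15.83 in M + LFD and 15.08, 15.75, 16.20 and 15.47 in M + HFD (difference -0.36, exact p = 0.229; -0.18 without M + HFD replicate 1). In F + LFD it read 16.20, 16.23, 15.45 and 15.70, and in F + HFD 16.08, 16.15, 15.36 and 15.86 (difference -0.03, exact p = 0.886). In F(OVX) + LFD it read 16.06, 15.30, 15.98 and 15.40, and in F(OVX) + HFD 16.14, 16.11, 16.14 and 15.78 (difference 0.36, exact p = 0.171). As for the dim Muc2 probe, 2 arrays of M + HFD and 2 of F(OVX) + LFD were lower than the rest of their group, and the diets overlapped in each comparison.

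Spdef read 13.54, 13.11, 13.60 and 12.86 in M + LFD and 12.55, 12.81, 13.96 and 11.86 in M + HFD (difference -0.48, exact p = 0.371; -0.17 without M + HFD replicate 4). Without M + HFD replicate 3, the highest array there, Spdef was a DEG in males. In F + LFD it read 13.37, 13.65, 11.27 and 12.06, and in F + HFD 13.49, 13.30, 11.67 and 12.84 (difference 0.24, exact p = 0.8). In F(OVX) + LFD it read 12.68, 12.06, 13.35 and 11.91, and in F(OVX) + HFD 13.10, 13.40, 13.46 and 13.08, a log2 fold change of 0.76 (95% confidence interval 0.08 to 1.44, limma adjusted p = 1, exact p = 0.0857). Spdef was not a DEG after scaling to the 75th percentile (0.69), under the methods' t-test, in a fit of all 24 arrays, or without any 1 of F(OVX) + LFD replicates 2 and 4 and F(OVX) + HFD replicates 2 and 3 (0.56 to 0.71). Of the OVX females on LFD, 1 array, replicate 3, lay within the range of the HFD arrays and the other 3 lay below it.

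Atoh1 read 12.14, 11.84, 12.16 and 11.57 in M + LFD and 11.32, 11.33, 11.87 and 10.94 in M + HFD, a difference of -0.56 that fell short of the fold change threshold (unadjusted limma p = 0.0372, adjusted p = 0.806, exact p = 0.0857). Leaving out M + LFD replicate 4 (-0.68) or M + HFD replicate 3 (-0.73) made it a DEG. In females it differed by -0.62 (exact p = 0.257), with 1 low array, F + HFD replicate 4, at 10.07, and by -0.23 without that array. In OVX females it differed by 0.23 (exact p = 0.343).

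**Figure D3:**
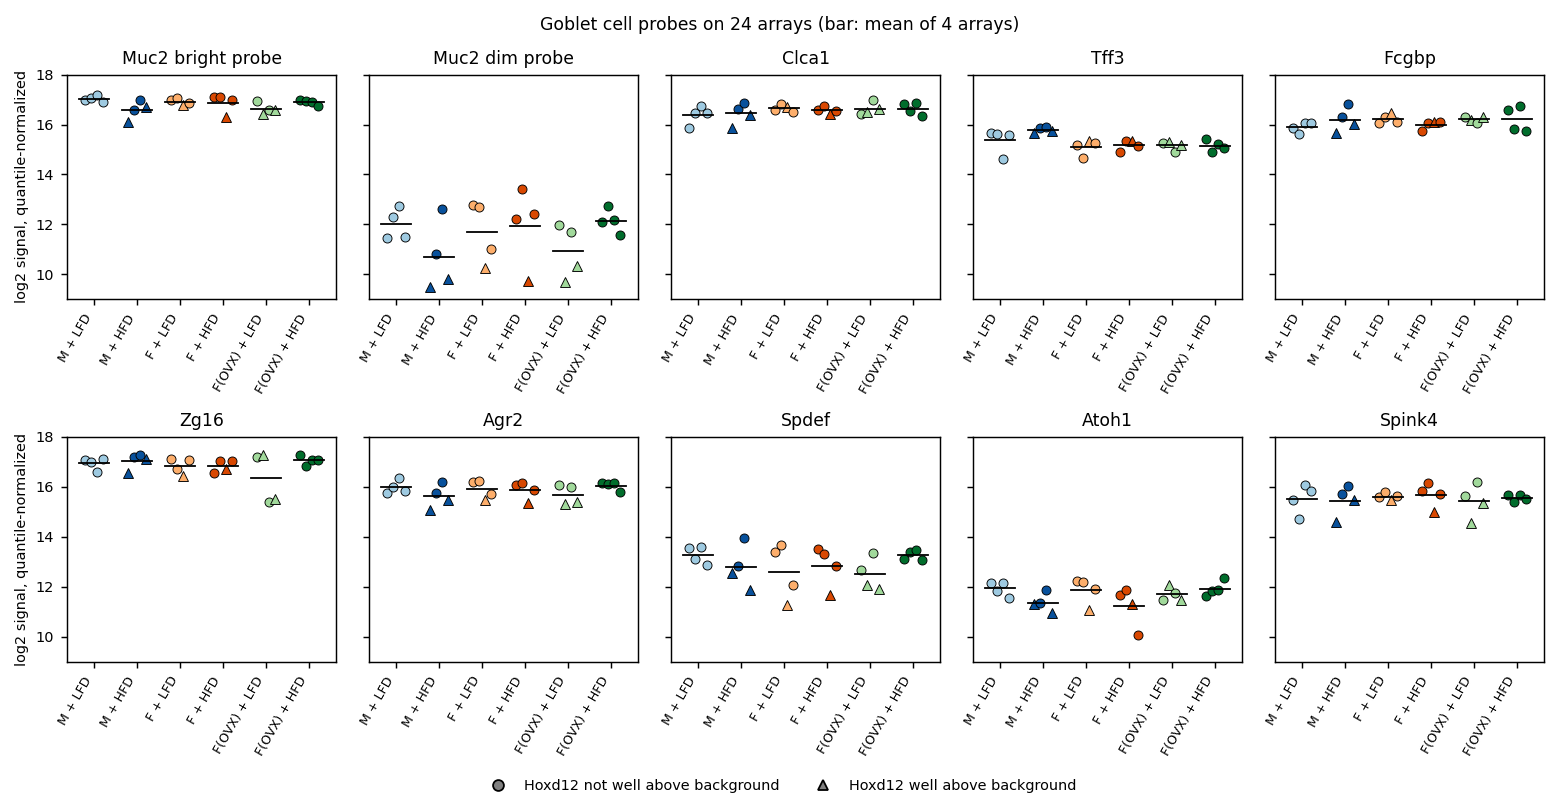
Each panel shows 1 probe, with the quantile-normalized log2 signal of every array on the vertical axis, the 6 groups on the horizontal axis, replicates 1 to 4 from left to right within a group, and bars at the group means. Triangles mark the 6 arrays with Hoxd12 well above background, which hold the 6 lowest values of the dim Muc2 probe and of Agr2 and are scattered among the other values of Clca1, Tff3 and Fcgbp.

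The arrays with the lowest values of the dim Muc2 probe and Agr2 were set apart by a gene of colon position. Hoxd12 and Hoxd13 belong to the posterior end of the Hox clusters, which are used along the gut from front to back, and they are active toward its posterior end. Hoxd12 was well above background on 6 of 24 arrays, namely M + HFD replicates 1 and 4, F + LFD replicate 3, F + HFD replicate 3 and F(OVX) + LFD replicates 2 and 4. None of the 4 M + LFD arrays and none of the 4 F(OVX) + HFD arrays was among them. Hoxd13 read 11.38, 9.49, 10.90, 10.84, 10.87 and 10.07 on these 6 arrays, 8.53 on M + HFD replicate 2 and between 2.07 and 6.46 on the other 17.

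The dim Muc2 probe read 9.49, 9.83, 10.25, 9.76, 9.71 and 10.35 on the same 6 arrays in that order, which were its 6 lowest values, and the next lowest was 10.81 on M + HFD replicate 2. Agr2 read between 15.08 and 15.47 on them and between 15.70 and 16.35 on the other 18, without overlap. Spdef read between 11.27 and 12.55 on them and between 12.06 and 13.96 on the others, and the bright Muc2 probe between 16.08 and 16.77 against 16.56 to 17.18, so that these overlapped. Tff3 (15.17 to 15.73 against 14.61 to 15.90), Clca1 (15.87 to 16.70 against 15.85 to 16.98), Fcgbp (15.66 to 16.47 against 15.61 to 16.83) and Zg16 (15.51 to 17.28 against 15.41 to 17.28) lay within the spread of the other arrays. Spink4 (14.53 to 15.46 against 14.71 to 16.19) and Atoh1 (10.94 to 12.07 against 10.07 to 12.36) overlapped too, with lower medians on the 6 arrays, 15.17 against 15.69 for Spink4 and 11.31 against 11.85 for Atoh1. These 6 arrays were picked out after their values had been seen, so no test is given. The share of all probes that separate them from the other 18 is not given, so the separation is not shown to be particular to these genes.

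**Figure D4:**
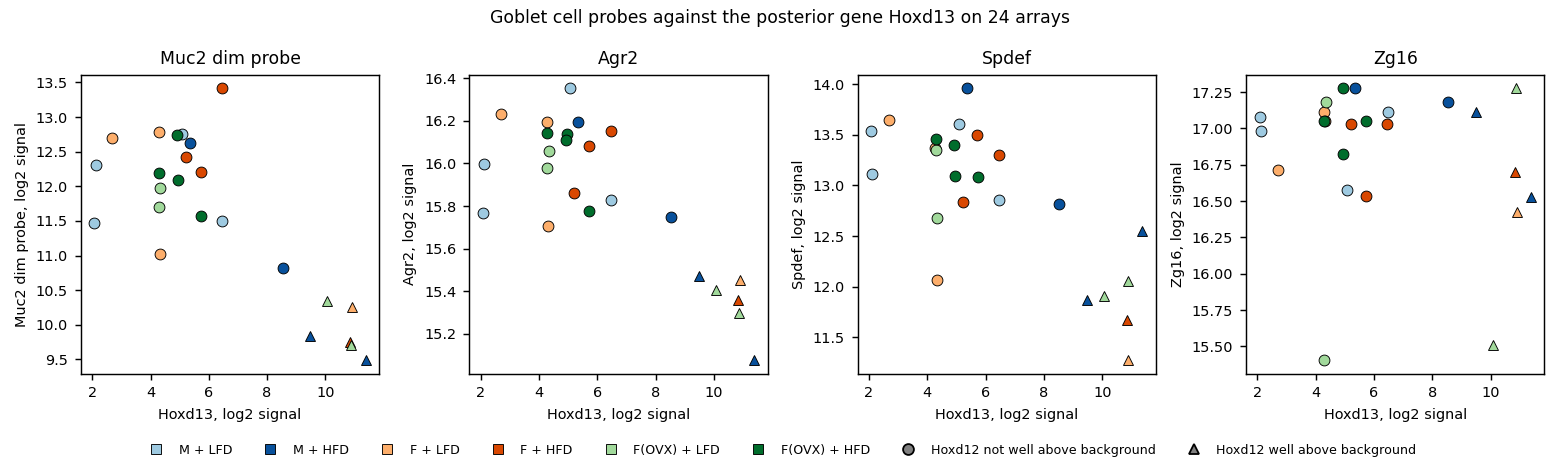
The log2 signals of the dim Muc2 probe, Agr2, Spdef and Zg16 are plotted against that of Hoxd13 on the 24 arrays, colored by group, with triangles for the 6 arrays on which Hoxd12 was well above background. The dim Muc2 probe is at or below 10.35 and Agr2 at or below 15.47 on all 6 triangles, whereas the triangles of Zg16 run from 15.51 to 17.28.

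The 6 arrays were spread unevenly over the diets, with 2 in M + HFD against 0 in M + LFD and 2 in F(OVX) + LFD against 0 in F(OVX) + HFD. When they were left out, which was decided once the data had been seen, the difference of the dim Muc2 probe was -0.29 in males, 0.52 in females and 0.31 in females after OVX. That of Agr2 was -0.01, -0.01 and 0.03, and that of Spdef 0.11, 0.18 and 0.25. Since the 6 arrays hold the lowest values of the dim Muc2 probe and Agr2, their removal shrinks both differences in males and OVX females by construction. The DEGs among the members were then 0 of 10 in OVX females, 0 in females and 1 in males, Fcgbp (0.65, limma adjusted p = 1), against 4.18%, 3.03% and 2.54% of all probes. With M + LFD replicates 1 and 2 left out, the dim Muc2 probe, Agr2 and Spdef were not DEGs in males. They were not DEGs there with all arrays either, so no call could be lost. Whether diet, the piece of colon taken or another source set the Hoxd12 signal was not tested.

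The difference between diet effects was tested directly in 1 limma fit of all 24 arrays. Between males and OVX females 3 of 10 probes passed the fold and p thresholds, against 6.15% of 26450 probes. The diet effect in males was lower than that in OVX females by -0.71 for the bright Muc2 probe (95% confidence interval -1.25 to -0.17, limma adjusted p = 0.547), by -2.54 for the dim probe (-4.75 to -0.32, adjusted p = 0.603) and by -0.72 for Agr2 (-1.44 to 0.00, adjusted p = 0.67). Spdef differed by -1.24 (-2.69 to 0.21, limma adjusted p = 0.753). Without the 6 arrays with Hoxd12, 0 of the 10 probes were called, and the differences were -0.38, -0.60 and -0.04 for the bright and dim Muc2 probes and Agr2. These arrays hold the lowest values of the dim Muc2 probe and Agr2, so leaving them out shrinks the differences of both by construction. Without M + HFD replicate 1 alone, 0 were called as well.

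Between males and females 0 of 10 probes were called, against 3.22% of 28575 probes, or 1 with the replicate number as a block, the dim Muc2 probe, and between OVX females and females 0 of 10, against 1.73% of 28300. The dim Muc2 probe differed by -1.59 between the diet effects of males and females (95% confidence interval -3.81 to 0.64), and the interval shows how wide a difference 4 arrays per group leave unresolved for this probe. Zg16 was called between OVX females and females without F(OVX) + LFD replicate 1 or replicate 2, and Atoh1 without any 1 of F + LFD replicate 3 and F + HFD replicates 1 and 2.

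Sex and surgery were compared within each diet. On HFD, Tff3 was higher in males than in females by 0.60 (95% confidence interval 0.18 to 1.02, limma adjusted p = 0.186), the only 1 of 10 probes called, against 8.16% of 25988 probes. It read 15.65, 15.84, 15.90 and 15.73 in M + HFD and 14.89, 15.34, 15.33 and 15.15 in F + HFD, so all 4 male arrays lay above all 4 female arrays (exact p = 0.0286, the smallest that 4 against 4 allows). Tff3 was singled out of the 10 probes by its call, so this separation adds no support of its own. Of all probes in this comparison, in which sex and slide coincide, 15.1% had an unadjusted limma p under 0.05. Without the arrays with Hoxd12 the Tff3 difference was 0.74. With 75th percentile scaling it was 0.43 and no DEG, and it was likewise under the fold threshold without M + HFD replicate 2 (0.58), M + HFD replicate 3 (0.56) or F + HFD replicate 1 (0.51). On HFD the bright Muc2 probe differed by -0.29 between males and females (exact p = 0.314). The dim probe differed by -1.26 (exact p = 0.343). Neither was called with all arrays, but without F + HFD replicate 3 the dim probe was called beside Tff3. On LFD, 0 of 10 probes were called between males and females, against 4.77% of 28350 probes, and Tff3 differed by 0.25.

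Between OVX females and females, 0 of 10 probes were called on LFD, against 1.54% of 28139 probes, and 1 of 10 on HFD, against 2.41% of 25203. This was Atoh1, which read 11.63, 11.83, 11.85 and 12.36 in F(OVX) + HFD and 11.67, 11.88, 11.31 and 10.07 in F + HFD (difference 0.68, limma adjusted p = 0.838, exact p = 0.2). Without F + HFD replicate 4, the low array, it was 0.29, and it was not called without F + HFD replicate 3 or F(OVX) + HFD replicate 2, 3 or 4 (0.54 to 0.71). On LFD, Zg16 was called in OVX females against females without F(OVX) + LFD replicate 1 (-0.76) or replicate 2 (-0.79), which left the 2 low arrays among 3. At an adjusted p under 0.05, 74 probes differed between males and females on LFD and 115 on HFD by limma, and no member was among them.

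The members varied together in part. Over the 24 arrays the dim Muc2 probe correlated with Agr2 at r = 0.95 (Spearman's rho = 0.94, permutation p = 1e-05, the smallest that 100000 permutations give, adjusted over 45 pairs p = 0.00015) and with the bright Muc2 probe at r = 0.86 (rho = 0.87, permutation p = 1e-05). The correlation with Agr2 was 0.96, 0.95 and 0.96 within the slides of males, females and OVX females, 0.93 without the 2 arrays farthest from the median of the dim probe, and 0.83 over the 18 arrays without Hoxd12. Spdef correlated with the dim probe at r = 0.82 (rho = 0.77, permutation p = 2e-05) and with Agr2 at r = 0.81 (rho = 0.83, permutation p = 2e-05), and at 0.59 and 0.66 over those 18 arrays. The 2 Muc2 probes correlated at 0.71 over the 18. The arrays share probes, slides and scaling, and the 6 arrays with Hoxd12 form the low end of each of these relations, so leaving them out also narrows the range of the dim Muc2 probe and Agr2, which by itself can lower r. Spdef correlated with the bright Muc2 probe at r = 0.60 (rho = 0.70, permutation p = 0.00197), and at 0.35 over the 18 arrays.

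Spink4 correlated with Agr2 at r = 0.69 (rho = 0.66, permutation p = 0.00027), and at 0.28 over the 18 arrays, which leave out the 6 lowest Agr2 values. Clca1 correlated with Fcgbp at r = 0.62 (rho = 0.56, permutation p = 0.00135, adjusted p = 0.00759), at 0.60 without the 2 farthest arrays and at 0.57 over the 18, and within the slides at 0.70, 0.44 and 0.54. Tff3 correlated with the dim and bright Muc2 probes at r = -0.38 and -0.29 (permutation p = 0.0648 and 0.173, adjusted p = 0.153 and 0.3). Zg16 correlated with the dim Muc2 probe at 0.18 (permutation p = 0.4), and Atoh1 with the dim probe at 0.33 (permutation p = 0.11), with 0.83 on the slide of M, 0.28 on that of F and -0.13 on that of F(OVX).

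**Figure D5:**
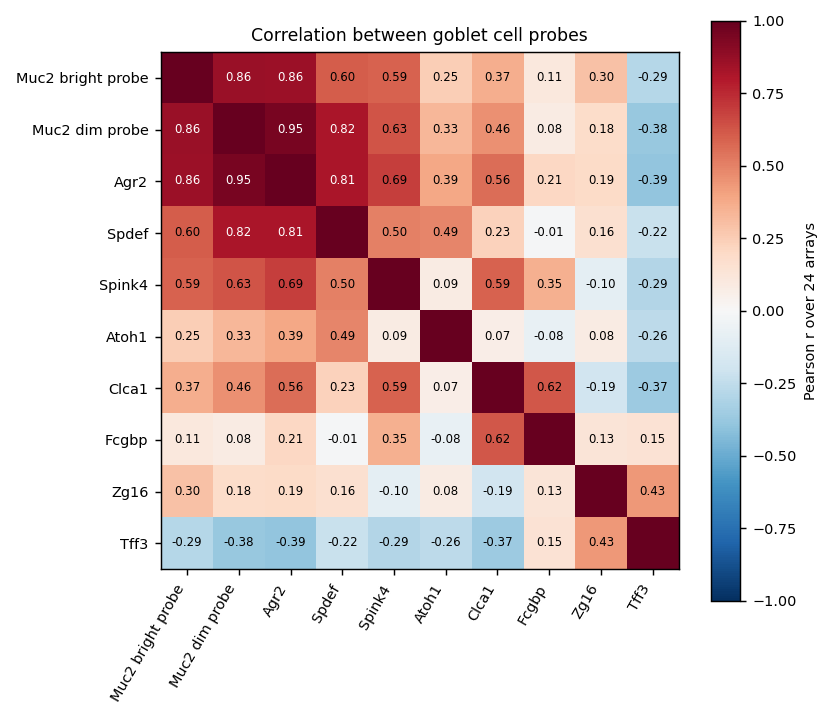
Each cell gives Pearson's r between 2 probes over the 24 arrays, from blue (negative) to red (positive). The 2 Muc2 probes, Agr2 and Spdef form a block with r between 0.60 and 0.95. Spink4 correlates with these 4 probes at 0.50 to 0.69, and Zg16 and Tff3 lie outside the block.

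The genes most like the bright Muc2 probe were ranked by how far deviations from the group means correlated over 24 arrays, among 11878 genes with a probe well above background on all arrays. The 5 closest were Tnfrsf23, a decoy receptor for the death ligand TRAIL (r = 0.90), Muc4, a membrane-bound mucin (0.88), Dpysl2, a cytoskeletal protein (0.88), Galnt3, an enzyme that starts mucin-type O-glycosylation (0.88), and Cpne8, a calcium-dependent membrane-binding protein (0.86). Agr2 stood at place 11 (0.85), Spink4 at 247, Spdef at 324, Clca1 at 684 and Tff3 at 7969. Without M + LFD replicates 1 and 2, Gria1 (0.90) entered the 5 and Cpne8 left. For the dim probe, a ranking added after seeing the data, the 5 closest were Elapor1 (0.96), Cgref1 (0.96), Kdelr3, a receptor that returns proteins to the endoplasmic reticulum (0.95), Agr2 (0.95) and Cck (0.93), and Spdef stood at place 38. The bright and dim probes shared none of these 5 closest genes.

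Other genes of the goblet cell programme were taken from a list of 52, of which 51 were on the array. In males 2 rose and 2 fell among 47 tested, against 4.23% of all probes called, with a median log2 fold change of -0.04 against 0.01 over all probes. Best2, a chloride channel of colonic goblet cells, rose by 2.30 (13.32, 12.79, 12.97 and 13.33 in M + HFD against 9.08, 9.57, 11.45 and 13.11 in M + LFD, exact p = 0.0857), with its lowest signals on M + LFD replicates 1 and 2. Capn8, a calpain of mucus cells, rose by 0.95 (exact p = 0.0571). B3gnt6, which builds the core 3 glycans of colonic mucin, fell by 3.16 (5.17, 6.50, 11.28 and 6.77 against 11.20, 11.81, 10.91 and 8.44, exact p = 0.114), and Gfi1, a transcription factor of the secretory lineage, fell by 0.62 (exact p = 0.114).

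In females 0 of 47 tested genes of the list were DEGs, with 34 lower and 13 higher and a median of -0.10 against 0.01 over all probes. In OVX females 3 of 46 rose and 0 fell, against 2.11% of all probes called, with a median of 0.25 against 0.02 over all probes. B3gnt6 rose by 2.71 (9.28, 11.94, 10.04 and 9.50 in F(OVX) + HFD against 8.24, 6.16, 8.68 and 6.82 in F(OVX) + LFD), Slc12a8, a membrane transporter, by 0.97 and Pdia5, a disulfide isomerase, by 0.80, and the diets were separated for each (exact p = 0.0286). These 3 genes were picked as DEGs, so the separation adds no support of its own, and the share of all probes that separate is not given. The 6 arrays with Hoxd12, 2 of them F(OVX) + LFD and none F(OVX) + HFD, held the 6 lowest of the 24 values of Slc12a8 (9.53 to 10.54, next 10.76) and of Pdia5 (9.47 to 10.48, next 10.53). They also held B3gnt6 at 5.17 to 6.82, where M + HFD replicate 2 was the only other array as low. Without these 6 arrays, the rise in OVX females was 1.73 for B3gnt6 and 0.62 for Slc12a8, both still DEGs, and Pdia5 (0.51) was no DEG. In males, 0 of the 47 genes were then DEGs and 0 had an unadjusted limma p under 0.05, and the same counts were found without M + LFD replicates 1 and 2, where B3gnt6 differed by -2.25 and Best2 by 0.82. Leaving out the arrays with Hoxd12 leaves only M + HFD replicates 2 and 3. The differences in males there were 2.08 for Best2, -1.70 for B3gnt6, 0.59 for Capn8 and -0.27 for Gfi1. With all arrays, the limma p adjusted over all probes was 0.806 or higher for every gene of the list in the diet comparisons. Without the 6 arrays with Hoxd12 it was 0.723 for B3gnt6, Slc12a8 and Pdia5 in OVX females. With all arrays, 12 of the 13 genes of mucin folding and glycosylation were higher under HFD in OVX females (median 0.33), 10 were lower in males (median -0.36) and 9 were lower in females (median -0.04). Without the arrays with Hoxd12, 10 were higher in OVX females (median 0.23) and 9 were lower in females (median -0.12). In males 7 were then lower and 6 higher (median -0.002). The summed log2 signal of the 13 was 16.08 to 16.27 in F(OVX) + LFD and 16.42 on all F(OVX) + HFD arrays. How often the sum of other genes separates the diets was not tested. Between males and OVX females 4 of the 13 were called, all with a lower diet effect in males, against 6.15% of all probes, and 1 of the 13 was called without the arrays with Hoxd12. Of the 7 genes of the Notch pathway, which holds progenitors back from the secretory fate, 0 were DEGs, and 0 had an unadjusted limma p under 0.05, in any of the 3 diet comparisons.

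Markers of other cell types moved beside the members in places. In OVX females 4 of 6 smooth muscle markers were DEGs, all higher under HFD, and 6 of 6 without the arrays with Hoxd12, with summed log2 signals of 15.36 to 16.57 in F(OVX) + LFD and 16.47 to 17.60 in F(OVX) + HFD, and none of the 6 was absent. In females 6 of 6 were higher too (median 0.46), with 0 DEGs. Without the arrays with Hoxd12, 4 of them were DEGs in females, all higher (median 0.76), against 3.03% of all probes. In males 4 of 6 were lower (median -0.02), and 6 without those arrays, with 0 DEGs. All 8 markers of absorptive colonocytes that were measured were higher under HFD in OVX females, 1 as a DEG and 4 without the arrays with Hoxd12, with sums of 16.41 to 17.58 against 17.16 to 17.91, and none was absent. In males 2 of 5 enteroendocrine markers were DEGs, both higher under HFD, with sums of 14.65 to 15.73 in M + LFD and 15.00 to 15.43 in M + HFD. There 2 of 4 stem cell markers were DEGs as well, both higher under HFD, and their sums overlapped, with medians of 11.51 in M + LFD and 12.22 in M + HFD. Without the arrays with Hoxd12, 0 markers of either list were DEGs in males, and 0 had an unadjusted limma p under 0.05. That setting leaves only M + HFD replicates 2 and 3. The differences there were 3.62 for Insl5, 0.92 for Pyy, 0.95 for Smoc2 and 0.68 for Lgr5, all past the fold threshold. Without M + LFD replicates 1 and 2, Insl5 (0.84) and Lgr5 (0.89) were DEGs, and Pyy (0.50) and Smoc2 (0.26) were not. Of all probes, 4.23% were called in males and 2.11% in OVX females, or 2.54% and 4.18% without the arrays with Hoxd12. In males 4.27% were called without M + LFD replicates 1 and 2. Lower under HFD as DEGs were the Paneth marker Mmp7 in males and the immune marker Jchain in OVX females. Without the arrays with Hoxd12, Mmp7 and the adipocyte marker Fabp4 were lower DEGs in males, and Mmp7, Adipoq and Cfd in OVX females. The sums of the 8 markers of epithelium as a whole overlapped between the diets in each comparison. The part of these cell types in the members' values was not tested.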

How the data were processed

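RNA of the colon was hybridised to 24 one-color Agilent mouse arrays, 1 mouse each. The deposited intensity values are the gProcessedSignal that Agilent Feature Extraction 11.0.1.1 wrote, background-subtracted by the authors' scanner software and not normalized between arrays, and the deposited flags mark control, outlier and well-above-background spots. The array annotation names the mm9 build, and no gene position was taken from it.

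Control spots were left out (59305 of 62976 spots kept), outlier spots were set to missing, signals were taken to log2 and quantile-normalized over the 24 arrays, and spots of a probe were averaged (R 4.3.3, limma 3.58.1, data.table version 1.17.8, matplotlib 3.10.9). Accessions were named through a RefSeq table (GRCm38.p6), which gave a symbol to 32994 of 56605 probes (58.3%). Groups came from the sample labels. No 2 arrays were identical (0 pairs), and that p-values measure the spread between 4 mice per group limits the precision.

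Probes entered a test when at least 1 of the groups compared had all 4 arrays well above background. Each diet comparison was a limma fit of its own 8 arrays, and the differences between diet effects and the sex and surgery contrasts came from 1 fit of all 24. Benjamini-Hochberg adjustment ran over all probes tested. Exact permutation tests were two-sided over the 70 ways to split 8 arrays, and correlations used 100000 permutations. The fits were tested on simulated data. Genes named beside the members were, by rule, up to 5 DEGs of the goblet cell list per diet comparison, the 5 genes most like the bright Muc2 probe, and Hoxb13; Hoxd12, Hoxd13 and the genes most like the dim probe were named after their values had been seen. The members and lists were chosen with earlier results of these data known. Where 1 gene had several probes, the lists used the brightest.

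Replicate numbers give the column of the slide, which the F arrays of LFD and HFD share. Deviations from the group means correlated at 0.29, 0.42, 0.58 and 0.26 for the 4 F pairs, and a fit with the replicate block gave 0 member DEGs in F, as without it. Alternatives were scaling to the 75th percentile, normexp background correction with an offset of 50, 2 other filters on dim probes, outlier spots kept, the methods' t-test, a fit of all arrays, the brightest probe per gene, the replicate block, and leaving out single arrays. Leaving out the arrays with Hoxd12, leaving out these or the 2 arrays low in Hoxb13 for the gene lists, and the block in the sex and surgery contrasts, were added after the data had been seen.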

Additional observations from a re-analysis of the deposited data

Results flagged for a closer look

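In 4 of the 60 sets of 4 arrays, 1 array of a member stood far from the other 3 by Dixon's test at 95%, where chance alone gives about 3. The bright Muc2 probe read 16.29 on F + HFD replicate 3, against 17.00 to 17.12 on the others, and this is an array on which Hoxd12 was well above background. Tff3 read 14.61 on M + LFD replicate 3, against 15.58 to 15.68. Fcgbp read 15.73 on F + HFD replicate 1, against 16.07 to 16.10. Agr2 read 15.78 on F(OVX) + HFD replicate 4, against 16.11 to 16.14.

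The diet effect differed between males and OVX females for 3 probes by the thresholds for a DEG. The difference, males minus OVX females, was -0.71 for the bright Muc2 probe, -2.54 for the dim Muc2 probe and -0.72 for Agr2, with limma adjusted p of 0.547, 0.603 and 0.67. None of the 3 was called without the 6 arrays with Hoxd12. Of these arrays, 2 were M + HFD and 2 were F(OVX) + LFD, and the 6 hold the lowest values of the dim Muc2 probe and Agr2. Leaving them out shrinks the differences of both by construction and leaves fewer arrays, so the lost calls do not show where the differences come from.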

How the results depend on the processing

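With 4 arrays per group, 2 probes of Muc2 that differ in spread, and no probe past an adjusted p of 0.05 in a diet comparison, the calls among the members rested on few arrays. Counts are of member DEGs. In the diet comparison of males the count was 0, and it was 1 after scaling to the 75th percentile (Tff3, 0.59), without both M + LFD arrays low in Hoxb13 (Tff3, 0.69) and without the arrays with Hoxd12 (Fcgbp, 0.65), and between 0 and 3 without single arrays. In OVX females it was 2, and it was 1 after scaling to the 75th percentile (the dim Muc2 probe), without a filter on dim probes (Spdef), in a fit of all 24 arrays (Zg16) and with the brightest probe per gene (Spdef), 0 under the methods' t-test and without the arrays with Hoxd12, and between 0 and 2 without single arrays. Between diet effects, leaving out the arrays with Hoxd12 gave 1 for M against F (Fcgbp, 0.84), 1 for F(OVX) against F (Atoh1, 1.22) and 0 in place of 3 for M against F(OVX), and leaving out single arrays gave 0 to 2, 0 to 1 and 0 to 4. For M against F on HFD the count of 1 was 0 after scaling to the 75th percentile and 0 to 2 without single arrays. For F(OVX) against F it was 0 to 1 without single arrays on LFD, and on HFD it was 0 after scaling to the 75th percentile, 0 without the arrays with Hoxd12 and 0 to 1 without single arrays.

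With the replicate block the count was 1 in males and 1 between the diet effects of M and F, the dim Muc2 probe in both (-1.32 and -1.59), and 4 between M and F(OVX), with Spdef (-1.24) added. Replicate pairs correlated at 0.01, -0.26, 0.00 and -0.02 in M and at 0.33, -0.07, 0.32 and 0.25 in F(OVX), so the numbers were not taken to pair those mice.

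In females, differences close to 0 changed sign. The bright Muc2 probe (-0.04) was at 0.42 after scaling to the 75th percentile, at 0.11 without the arrays with Hoxd12 and at -0.12 to 0.16 without single arrays. The gap between the Muc2 probes (-0.30) was at 0.05 after that scaling and at -0.84 to 0.12 without single arrays, and in males it was at 0.56 to 1.39, the last without M + HFD replicate 3 (exact p = 0.0286 of permutations). Agr2 in females was at 0.40 after that scaling and at -0.18 to 0.14 without single arrays, the dim Muc2 probe at -0.22 to 1.0 and Spdef at -0.20 to 0.62. Spdef in males was at 0.11 without the arrays with Hoxd12. The cause was not tested, except that fewer arrays or fewer probes entered where arrays or probes were left out.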
